A study of Mus musculus with 2 samples.

Results

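The osteoclast effector genes are the genes whose products let an osteoclast fuse, seal onto bone, acidify the space beneath it and digest the matrix. The 9 members described here, Acp5, Ctsk, Mmp9, Atp6v0d2, Dcstamp, Ocstamp, Oscar, Calcr and Itgb3, were taken as a list of symbols, and all 9 were found among the 32285 genes of the files. Their levels and their joint detection were followed through osteoclast-like cells, 4 groups of macrophage-like cells and neutrophil-like cells. The data were single-cell RNA profiles of plastic-adherent marrow cells. The cKO library came from C57BL/6J mice carrying Prrx1-Cre+/- and Slc31a1 flox/flox, and the WT library from littermates with the floxed gene and no Cre. Prrx1-Cre acts in limb mesenchyme, so the copper importer gene Slc31a1 was not targeted in the blood lineage that gives rise to osteoclasts. Marrow from femurs and tibias was plated in medium with 10% serum, non-adherent cells were washed off after 48 h, and no drug or osteogenic medium was added. How many mice went into each library, and their age, are not given in the sources used here.

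Osteoclasts form when macrophage precursors that receive CSF1 and RANKL signals fuse into large cells with many nuclei. The mature cell attaches through integrin αvβ3, seals off a patch of bone, pumps protons into it with a V-ATPase and secretes proteases. Macrophages share the lineage and some of the same lysosomal genes, and neutrophils are a more distant myeloid branch that stores one of the same proteases in its granules.

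The cKO library held 126031142 unique molecular identifiers (UMIs, 1 per captured mRNA molecule) in 6140 barcodes, and the WT library 152398639 UMIs in 9125 barcodes. After filtering, 5263 cKO and 7637 WT cells remained, and 11 barcodes occurred in both libraries. There was 1 library per genotype, so every difference between cKO and WT is a difference between 2 libraries with no replicate check. Slc31a1, the targeted gene, had 14.3 CPM in cKO and 42.3 CPM in WT mesenchymal-like cells, where CPM is the gene's UMIs scaled to the total of that class and library by the usual factor. In osteoclast-like cells it had 74.2 CPM in cKO and 77.3 CPM in WT, and in macrophage-like cells 72.2 CPM in cKO and 70 CPM in WT. The labels call the samples mesenchymal stem cells, but macrophage-like cells made up 48.1% of the cKO and 36.1% of the WT cells, and mesenchymal-like cells 26.9% of the cKO and 48.8% of the WT cells.

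Cells were clustered with the 9 members left out of the clustering genes, so that their levels did not decide which cells fell together. One cluster was named osteoclast-like from 16 other markers, all 16 of them at least 2-fold above the mean of the clusters, among them Nfatc1, Tnfrsf11a, Slc9b2 and Rufy4. It held 65 cKO cells, or 1.24% of that library (95% Clopper-Pearson interval 0.954 to 1.57), and 31 WT cells, or 0.406% (0.276 to 0.576). These cells had a median of 22456 UMIs in cKO and 22347 in WT, with a range of 1629 to 72684 in cKO and 2919 to 32180 in WT. The median share of mitochondrial UMIs was 7.88% in cKO and 7.61% in WT osteoclast-like cells, against 3.65% in cKO and 3.77% in WT macrophage-like cells. The limit of 15% on that share removed 10 cKO and 3 WT cells of the class. A limit of 10%, with higher minimums of genes and UMIs, left 36 cKO and 19 WT cells. Macrophage-like cells fell into a large cluster numbered 0, a lipid-associated-like cluster, a cycling-like cluster and a small resident-like cluster. Cluster 0 met the naming rule of no macrophage subset. Cx3cr1 and Slc40a1, both listed as markers of a Cx3cr1 subset, were still among its top 10 genes by fold over all clusters.

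All 9 members peaked, among the myeloid classes, in osteoclast-like cells of both libraries. Each was at least 1.5-fold higher there than in macrophage-like cells, in cKO and in WT, where 18.8% of 9211 measured genes in cKO and 18.3% of 9354 in WT were that much higher. The median log2 difference over the members was 6.46 in cKO and 6.93 in WT, against -0.20 in cKO and -0.24 in WT over all measured genes. Since osteoclast-like cells are defined by related genes, this is a description of the class and not a test. The smallest member differences were those of Atp6v0d2 and Itgb3.

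**Figure D1:**
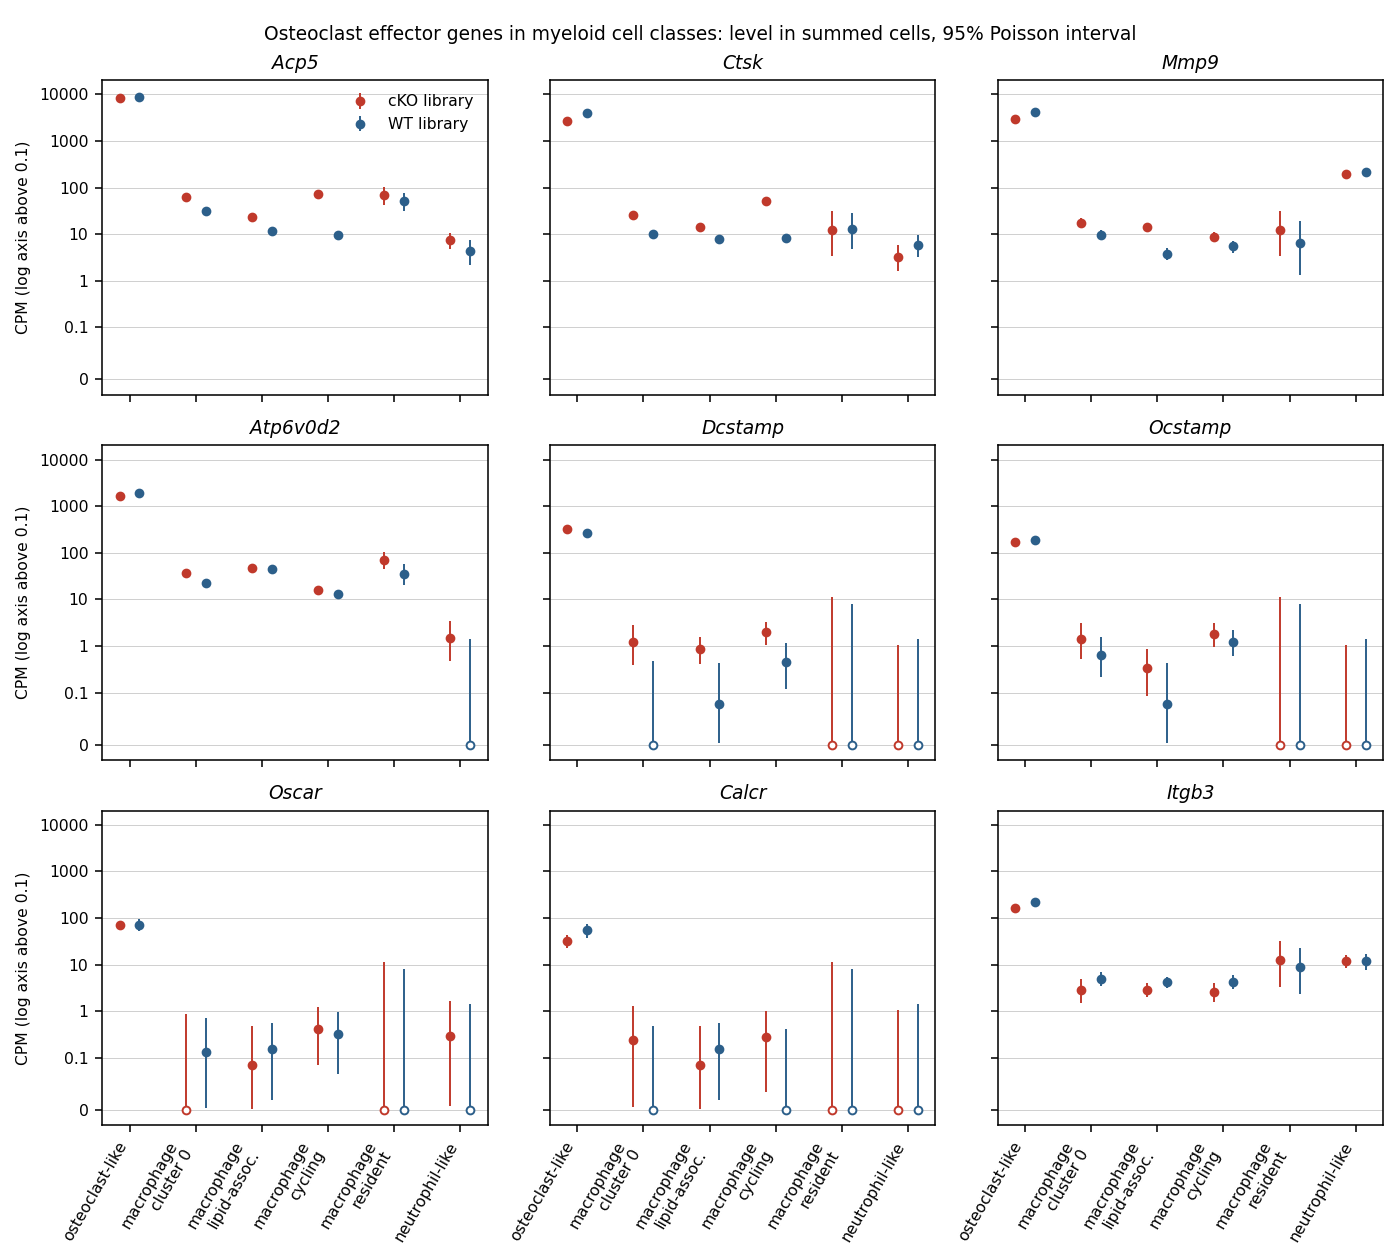
CPM of each member (log axis above 0.1) in 6 myeloid cell classes of the cKO (red) and WT (blue) libraries; points are UMIs summed over the cells of a class, bars are 95% Poisson intervals, and open points are classes with 0 UMIs. Every member was highest in osteoclast-like cells, Mmp9 was also raised in neutrophil-like cells at 197 CPM in cKO and 214 CPM in WT, and Dcstamp, Ocstamp and Calcr had 0 UMIs in neutrophil-like cells of both libraries.

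RefSeq promoter sequence (GRCm38.p6) was held for 4 of the 9 members, and the 250 bases before the annotated start are shown because these genes were found together in the same few cells. They are written 5′ to 3′ on the strand of the gene, and capitals mark the motifs searched on both strands: TGANTCA (AP-1), GGAAA (NFAT core), GAGGAA (PU.1 core) and CACGTG or CATGTG (the E-box that MITF can bind). A site of GAGGAA followed by A also holds GGAAA. The RefSeq table held 3 windows for Acp5 and 2 for Calcr, and the one whose start lay nearest the 5′ end of the annotated gene is shown.
Acp5 (chr9:22135747-22135996, minus strand): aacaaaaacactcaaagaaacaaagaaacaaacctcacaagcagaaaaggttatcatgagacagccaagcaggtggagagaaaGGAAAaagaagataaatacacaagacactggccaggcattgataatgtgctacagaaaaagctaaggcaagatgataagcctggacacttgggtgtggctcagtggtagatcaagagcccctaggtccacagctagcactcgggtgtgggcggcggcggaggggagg
Ctsk (chr3:95498960-95499209, plus strand): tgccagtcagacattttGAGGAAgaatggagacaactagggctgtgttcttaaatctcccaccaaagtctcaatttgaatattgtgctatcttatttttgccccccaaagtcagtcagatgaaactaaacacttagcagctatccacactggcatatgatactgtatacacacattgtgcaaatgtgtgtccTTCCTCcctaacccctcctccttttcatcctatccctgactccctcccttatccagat
Oscar (chr7:3616158-3616407, minus strand): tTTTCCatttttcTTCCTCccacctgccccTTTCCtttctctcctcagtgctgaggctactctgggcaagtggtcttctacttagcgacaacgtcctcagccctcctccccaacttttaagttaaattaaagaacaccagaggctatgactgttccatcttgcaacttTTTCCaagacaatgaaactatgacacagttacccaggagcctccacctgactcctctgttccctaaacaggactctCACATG
Calcr (chr6:3764714-3764963, minus strand): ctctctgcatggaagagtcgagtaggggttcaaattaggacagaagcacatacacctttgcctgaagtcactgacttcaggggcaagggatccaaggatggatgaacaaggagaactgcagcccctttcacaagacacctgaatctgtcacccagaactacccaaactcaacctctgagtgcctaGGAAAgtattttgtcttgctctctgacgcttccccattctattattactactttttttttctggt
The Acp5 window held GGAAA 167 bases before the start, and the Calcr window held it 65 bases before. The Ctsk window held GAGGAA at 233 and 58 bases. Oscar's window held GGAAA at 249, 220 and 82 bases, GAGGAA at 237 and CATGTG at 6. None of the 4 windows held TGANTCA or CACGTG. The windows at other starts differed: 1 of the 2 others of Acp5 held CATGTG, 90 bases before its start, and the other one of Calcr held no GGAAA. Of 32851 promoter windows of this length, 55.6% held GGAAA, 23.3% GAGGAA, 12.3% CATGTG, 6.75% TGANTCA and 6.02% CACGTG, and a match is a description of letters only.

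Atp6v0d2 (chromosome 4, 19876841 to 19922605, minus strand; GRCm38) encodes a subunit of the V-ATPase and is also needed for osteoclast fusion in mice. It had 1663 CPM in cKO osteoclast-like cells (95% Poisson interval 1597 to 1732) and 1948 CPM in WT (1843 to 2057), and was found in 63 of 65 cKO and 31 of 31 WT cells. Of the 9 genes it was the one with the highest share of its UMIs in macrophage-like cells, 24.7% in cKO and 37.5% in WT. Its level there was 35.8 CPM in cKO and 29.5 CPM in WT, which put osteoclast-like cells 46.5-fold higher in cKO (42.9 to 50.4) and 66.1-fold higher in WT (60.6 to 72.1). Among the larger macrophage clusters it was highest in lipid-associated-like cells, at 46.5 CPM in cKO and 45.1 CPM in WT, and lowest in cycling-like cells, at 16.3 CPM in cKO and 12.8 CPM in WT. The lipid-associated-like level exceeded the cycling-like one 2.84-fold in cKO (2.33 to 3.5) and 3.53-fold in WT (2.89 to 4.35). Resident-like cells had 70.9 CPM in cKO and 35 CPM in WT, from 23 UMIs in cKO and 16 in WT, and their intervals overlapped those of lipid-associated-like cells. Neutrophil-like cells had 5 UMIs in cKO and 0 in WT, where the limit that a count of 0 allows is 1.17 CPM.

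The macrophage-like cells in which Atp6v0d2 was found had more lipid-associated and fewer cycling transcripts than the others. In a random draw of 3000 UMIs from each cell, 147 cKO and 137 WT macrophage-like cells had an Atp6v0d2 UMI. In them Mmp12, a macrophage elastase, had 192 CPM in cKO against 46 CPM in the other cKO macrophage-like cells, and 180 CPM in WT against 23.7 CPM in the other WT ones. Lpl, a lipoprotein lipase, was 1.97-fold higher in cKO (1.88 to 2.06) and 2.12-fold higher in WT (2.03 to 2.22). Gpnmb and Cd9 were also higher in both libraries, Gpnmb by 1.43-fold in cKO and 1.44-fold in WT and Cd9 by 1.72-fold in cKO and 1.71-fold in WT. Mki67, a gene of dividing cells, had ratios of 0.736 in cKO (0.643 to 0.839) and 0.429 in WT (0.364 to 0.503), and Top2a, a topoisomerase of dividing cells, of 0.655 in cKO (0.584 to 0.733) and 0.478 in WT (0.422 to 0.539). Vcam1, an adhesion molecule of resident marrow macrophages, was 1.81-fold higher in cKO (1.44 to 2.26) and had a ratio of 0.828 in WT (0.635 to 1.06). The osteoclast transcription factor Nfatc1 had ratios of 1.21 in cKO (0.931 to 1.54) and 1.07 in WT (0.835 to 1.36). The transporter gene Slc37a2, an osteoclast marker, had ratios of 1.26 in cKO (1.1 to 1.44) and 1.17 in WT (1.02 to 1.34). The positive cells had a median of 8944 UMIs in cKO and 11479 in WT, against 9789 in cKO and 10760 in WT negative cells.

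Acp5 (chromosome 9, 22126727 to 22135711, minus strand) encodes tartrate-resistant acid phosphatase, the enzyme of the classical osteoclast stain. The annotation places 6530413G14Rik on the opposite strand across it, and whether that gene's reads could add to its count was not tested. It was found in 65 of 65 cKO and 30 of 31 WT osteoclast-like cells, at 8200 CPM in cKO (8051 to 8351) and 8595 CPM in WT (8372 to 8821). The count per cell ran from 1 to 627 UMIs in cKO, with a median of 143, and from 0 to 538 in WT, with a median of 170. In macrophage-like cells Acp5 had 46.4 CPM in cKO and 16.5 CPM in WT, and in neutrophil-like cells 7.34 CPM in cKO and 4.28 CPM in WT. Of all Acp5 UMIs, 85.3% in cKO and 84.4% in WT lay in osteoclast-like cells.

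Macrophage-like cells with Acp5 had more Vcam1 and Spic transcripts than those without it. At 3000 UMIs per cell, 8.54% of cKO and 5.2% of WT macrophage-like cells had an Acp5 UMI, against 1.55% of cKO and 2.1% of WT neutrophil-like cells, a class not known to make it. Other classes varied, and some reached the macrophage-like share. T or NK cell-like cells had 2 of 36 in cKO (5.56%) and 5 of 40 in WT (12.5%, 4.19 to 26.8). B cell-like cells had 2 of 38 in cKO (5.26%) and 2 of 30 in WT (6.67%, 0.818 to 22.1). Mesenchymal-like cells had 1.67% in cKO and 1.69% in WT. Before thinning the medians were 7731 UMIs in cKO and 9577 in WT macrophage-like cells, and 8948 in cKO and 6852 in WT neutrophil-like cells. In the separate random draw used for Atp6v0d2 above, also at 3000 UMIs, 171 cKO and 113 WT cells had an Acp5 UMI, so their numbers differ slightly from those shares. In them Vcam1 had 61.2 CPM in cKO against 32.4 CPM in the other cKO cells, and 135 CPM in WT against 44.2 CPM in the other WT cells. Spic, the transcription factor of iron-recycling macrophages, was 2.11-fold higher in cKO (1.53 to 2.85) and 2.57-fold higher in WT (1.87 to 3.47). The other resident markers varied. Axl had ratios of 1.35 in cKO and 1.68 in WT, and Hmox1 of 0.99 in cKO and 1.15 in WT. Cd163 had ratios of 0.237 in cKO (0.0059 to 1.38) and 1.5 in WT (0.474 to 3.63). Lpl and Cd9, which were higher with Atp6v0d2 in both libraries, were higher with Acp5 in cKO, by 1.63-fold for Lpl (1.55 to 1.71) and 1.48-fold for Cd9 (1.34 to 1.62). In WT Lpl had a ratio of 1.2 (1.11 to 1.28) and Cd9 of 0.862 (0.735 to 1.01). Mmp12 had ratios of 1.3 in cKO (1.07 to 1.58) and 0.843 in WT (0.561 to 1.22). The remaining lipid-associated markers, Cd36, Gpnmb and Fabp5, were lower with Acp5 in both libraries. Their ratios were 0.903, 0.825 and 0.689 in cKO, and 0.563, 0.893 and 0.924 in WT. Whether the splits by Acp5 and by Atp6v0d2 differ was not tested. Positive cells were shallower, with medians of 7021 UMIs in cKO and 7445 in WT, against 9926 in cKO and 10963 in WT negative cells.

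Ctsk (chromosome 3, 95499256 to 95509362, plus strand) encodes cathepsin K, the collagen-degrading protease of the osteoclast. It had 2740 CPM in cKO osteoclast-like cells (2654 to 2827) and 3953 CPM in WT (3803 to 4108), found in 59 of 65 cKO and 28 of 31 WT cells. The median cell held 24 UMIs in cKO and 69 in WT. Macrophage-like cells had 27.5 CPM in cKO and 8.69 CPM in WT. Most Ctsk molecules lay outside the myeloid classes. Mesenchymal-like cells held 52.4% of its UMIs in cKO and 66.8% in WT, at 63.7 CPM in cKO and 57.6 CPM in WT, above the level in macrophage-like cells of the same library.

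Mmp9 (chromosome 2, 164940780 to 164955850, plus strand) encodes gelatinase B, used by osteoclasts and stored in the gelatinase granules of neutrophils. In osteoclast-like cells it had 3016 CPM in cKO (2926 to 3108) and 4124 CPM in WT (3971 to 4282). It was the member with a clear second myeloid site. Neutrophil-like cells had 197 CPM in cKO (182 to 212) and 214 CPM in WT (196 to 232), and macrophage-like cells 13 CPM in cKO and 5.84 CPM in WT. At 3000 UMIs, 24.5% of cKO and 26.2% of WT neutrophil-like cells had an Mmp9 UMI, against 1.67% of cKO and 1.51% of WT mesenchymal-like cells. The level in osteoclast-like cells was still 15.3-fold that in neutrophil-like cells in cKO (14.1 to 16.6) and 19.3-fold in WT (17.6 to 21.2).

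Within the neutrophil-like class, Mmp9 went with genes of late maturation. In the separate random draw, 78 cKO and 75 WT cells had an Mmp9 UMI at 3000 UMIs. They had 3590 CPM of Retnlg in cKO against 28.1 CPM in the other cKO cells, and 3920 CPM in WT against 15 CPM in the other WT cells; Retnlg encodes a resistin-like protein of mature neutrophils. Cxcr2, the chemokine receptor of released neutrophils, was 5.15-fold higher with Mmp9 in cKO (4.16 to 6.37) and 4.7-fold higher in WT (3.64 to 6.06). The early granule genes went the other way. Mpo, myeloperoxidase, had 0 CPM with Mmp9 and 885 CPM without it in cKO, and 55.5 CPM with it and 1186 CPM without it in WT. Elane, neutrophil elastase, had 0 CPM with Mmp9 and 1607 CPM without it in cKO, and 132 CPM with it and 1402 CPM without it in WT. The calprotectin genes S100a8 and S100a9 barely differed, with ratios of 0.975 and 1.03 in cKO and 1.01 and 1.06 in WT. Cells with Mmp9 were shallower, with medians of 5298 UMIs in cKO and 4601 in WT, against 11513 in cKO and 9650 in WT cells without it.

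**Figure D2:**
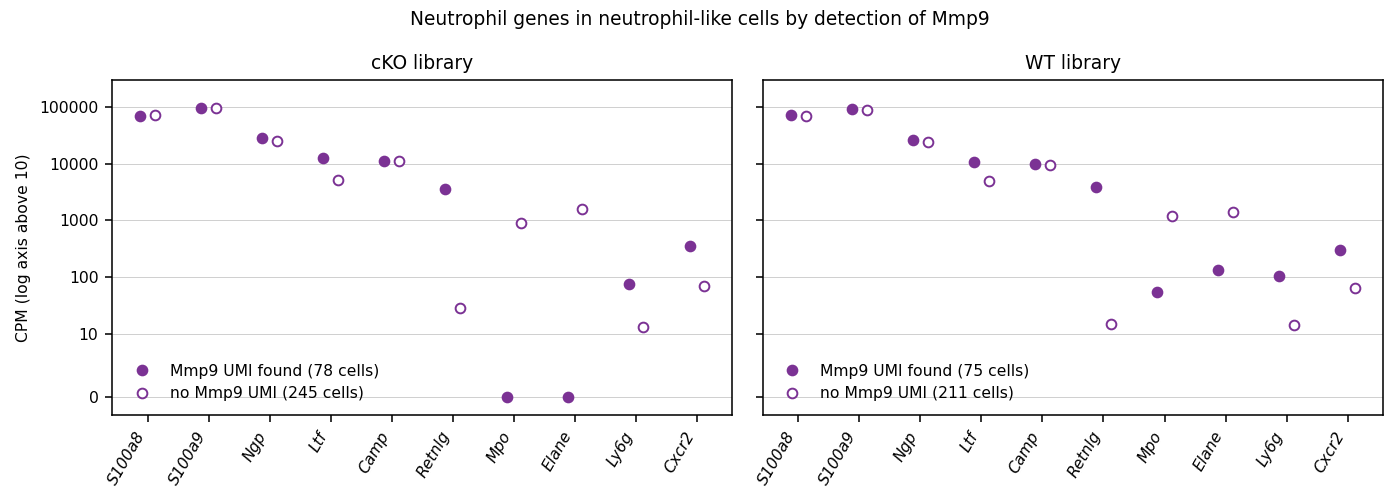
CPM (log axis above 10) of 10 neutrophil genes in neutrophil-like cells with an Mmp9 UMI at 3000 UMIs per cell (filled) and without one (open), in the cKO (left) and WT (right) libraries. Retnlg, Ly6g and Cxcr2 were higher with Mmp9 and Mpo and Elane lower, in both libraries.

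Dcstamp (chromosome 15, 39745930 to 39760938, plus strand) and Ocstamp (chromosome 2, 165393760 to 165400405, minus strand) encode membrane proteins required for fusion of osteoclast precursors. Dcstamp had 324 CPM in cKO (295 to 355) and 267 CPM in WT (229 to 309) osteoclast-like cells, and was found in 51 of 65 cKO and 24 of 31 WT cells. Ocstamp had 174 CPM in cKO (153 to 197) and 191 CPM in WT (159 to 227), in 48 of 65 cKO and 21 of 31 WT cells. Both were nearly confined to the class among myeloid cells. Macrophage-like cells had 29 Dcstamp UMIs in cKO, 12 of them in 1 cell, and 5 in WT, and 23 Ocstamp UMIs in cKO and 17 in WT. Neither had a UMI in the neutrophil-like cells of either library, where a count of 0 allows up to 0.88 CPM in cKO and 1.17 CPM in WT. Dcstamp was then at least 368-fold higher in osteoclast-like than neutrophil-like cells in cKO and at least 229-fold in WT, taken against a floor of 3 counts over the neutrophil-like cells. Full depth showed the pair together in 41 of the 51 Dcstamp-positive cKO cells and 17 of the 24 WT ones, and Ocstamp in 7 of the 14 Dcstamp-negative cKO cells and 4 of the 7 WT ones.

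Oscar (chromosome 7, 3609813 to 3616157, minus strand) encodes a collagen-binding co-receptor that signals through FcRγ. It had 72.1 CPM in cKO (58.8 to 87.5) and 71.2 CPM in WT (52.3 to 94.7) osteoclast-like cells, in 28 of 65 cKO and 15 of 31 WT cells. Its counts in macrophage-like cells were 4 UMIs in cKO and 6 in WT over 2531 cKO and 2755 WT cells. Mesenchymal-like cells held 48 of its UMIs in cKO and 50 in WT, at under 1 CPM in both.

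Calcr (chromosome 6, 3685680 to 3764714, minus strand), the receptor for calcitonin, is a late gene of osteoclast differentiation; the genes of 2 microRNAs, Mir489 and Mir653, lie inside it. It had 31.8 CPM in cKO (23.2 to 42.5) and 54.6 CPM in WT (38.2 to 75.5) osteoclast-like cells. It was found in the smallest share of them, 12 of 65 in cKO and 12 of 31 in WT. The cells with Calcr mostly held the other receptor genes too. Of the 12 positive cells in each library, Itgb3 was found in 11 in cKO and 11 in WT, against 28 of 53 cKO and 10 of 19 WT cells without Calcr. Oscar was found in 9 of the 12 in cKO and 10 of the 12 in WT, against 19 of 53 in cKO and 5 of 19 in WT without it. These counts are at full depth, where deeper cells show more genes, and at 3000 UMIs only 2 cKO and 6 WT cells kept a Calcr UMI.

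Itgb3 (chromosome 11, 104608000 to 104670476, plus strand) encodes the β3 integrin chain, which pairs with αv in osteoclasts and with αIIb in platelets. In osteoclast-like cells it had 165 CPM in cKO (144 to 187) and 221 CPM in WT (187 to 260). Those cells held only 9.5% of all Itgb3 UMIs in cKO and 3.77% in WT. Megakaryocyte-like cells had the highest level, 2723 CPM in cKO and 8247 CPM in WT over 8 cKO and 11 WT cells, and 1 WT cell held 891 of the 1050 UMIs there. An unnamed cluster of 35 cKO and 39 WT cells followed with 397 CPM in cKO and 356 CPM in WT, and endothelial-like cells came next with 266 CPM in cKO and 277 CPM in WT. Within the myeloid classes, neutrophil-like cells had 11.7 CPM in both libraries and macrophage-like cells 2.96 CPM in cKO and 4.53 CPM in WT. Itgb3 and Mmp9 were lower in macrophage-like than in neutrophil-like cells, for Itgb3 with ratios of 0.252 in cKO (0.168 to 0.382) and 0.388 in WT (0.26 to 0.598).

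At equal depth the members were found together in osteoclast-like cells and seldom in the other named classes. At 3000 UMIs per cell, which left out 7 cKO and 1 WT cell of the class, 53 of 58 cKO osteoclast-like cells (91.4%, interval 81 to 97.1) and 28 of 30 WT ones (93.3%, 77.9 to 99.2) had at least 3 members. Unthinned, all 65 cKO cells and 96.8% of WT cells did, and 9 cKO and 7 WT cells held all 9. In macrophage-like cells at least 3 members were found in 9 of 2026 cKO cells (0.444%, 0.203 to 0.842) and 1 of 2424 WT cells (0.0413%, 0.00104 to 0.23). At least 1 member was found in 21.5% of cKO and 16.1% of WT macrophage-like cells, and in 25.3% of cKO and 23.2% of WT mesenchymal-like cells. In neutrophil-like cells at least 1 was found in 29.7% of cKO and 30.1% of WT cells, mostly Mmp9, and at least 3 in 0 of 323 cKO cells (Clopper-Pearson upper bound 1.14%) and in 1 of 286 WT cells. Without Ctsk, Mmp9 and Itgb3, the members that other cell types also carried, at least 3 were found in 69% of cKO and 66.7% of WT osteoclast-like cells. Depth changed these shares in other classes. Of mesenchymal-like cells, 22.9% in cKO and 7.11% in WT had at least 3 of the 9 unthinned, and 0% and 0.211% at 3000 UMIs. Their medians were 61951 UMIs in cKO and 13941 in WT. Unthinned shares were 18.6% in cKO and 3.25% in WT endothelial-like cells, and 2.17% in cKO and 0.835% in WT macrophage-like cells.

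**Figure D3:**
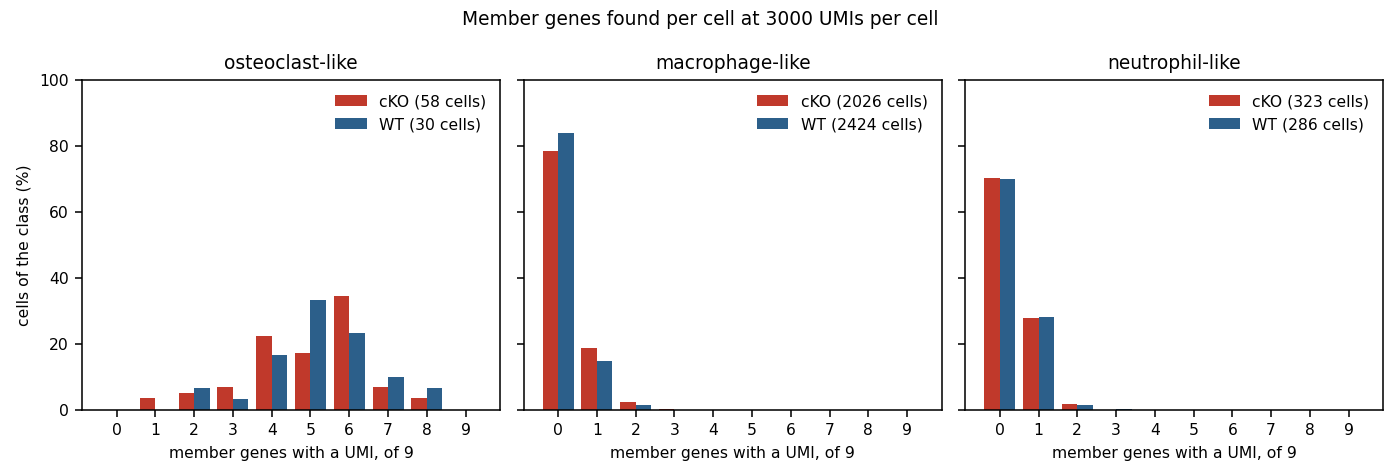
Share of cells by number of members found, with each cell thinned to 3000 UMIs, in osteoclast-like (58 cKO, 30 WT), macrophage-like (2026 cKO, 2424 WT) and neutrophil-like (323 cKO, 286 WT) cells; red bars are the cKO and blue bars the WT library. Osteoclast-like cells mostly held 4 to 6 members, and macrophage-like and neutrophil-like cells 0 or 1.

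One cell stood out among the few macrophage-like cells with many members. It was a cKO cell of the cycling-like cluster with 58634 UMIs, against a cluster median of 12293 in cKO. It held 373 Acp5, 259 Ctsk, 20 Atp6v0d2, 12 Dcstamp, 10 Mmp9 and 1 Ocstamp UMIs, together 11512 CPM, near the median of 13506 CPM over cKO osteoclast-like cells. It had UMIs of 11 of the 16 other osteoclast markers, all 7 cycling markers and 4 of the 10 macrophage markers. Its doublet score was 0.0554, against a median of 0.0382 in its cluster and a highest kept score of 0.115 in the library. No WT cycling-like cell was near it: the one with most member UMIs held 13. A further group lay outside the myeloid classes. In an unnamed cluster led by immunoglobulin genes, 13 of its 19 cKO cells and 0 of 82 WT cells at this depth (upper bound 4.4%) had at least 3 members. Those 13 cells held 235 CPM of B cell markers, against 32491 CPM in the other 6 cKO cells of the cluster. The 13 also held 15091 CPM of neutrophil markers and 11069 CPM of mesenchymal markers. Their median doublet score was 0.109, against 0.0494 in cKO osteoclast-like cells with 3 or more members. They were kept out of the osteoclast-like class.

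In osteoclast-like cells 7 of the 9 members had a cKO over WT CPM ratio below 1. Of the 9, 0 were at least 1.5-fold higher in cKO, where 12% of 8669 measured genes were, and 1 was at least 1.5-fold lower, where 11.5% were. The median log2 difference was -0.23 over the members and 0.01 over all measured genes. The number of members at least 1.5-fold lower was 4 under the stricter cell filter, where Itgb3 had a ratio of 0.419 and Oscar of 0.514, and 4 when the members were among the clustering genes. That clustering added 17 cKO cells to the class, 13 of them from the unnamed cluster led by immunoglobulin genes. The 1 member that much lower in the full set of cells was Calcr, with a ratio of 0.583 (0.368 to 0.93), and without the 1 WT cell that had over 0.5% of its UMIs from neutrophil markers the ratio was 0.773. Ctsk had a ratio of 0.693 (0.659 to 0.729), Mmp9 of 0.731 (0.697 to 0.768) and Itgb3 of 0.744 (0.602 to 0.921). The intervals of these 3 genes lay below 1, as did those of Calcr, Atp6v0d2 and Acp5. Such intervals leave out the spread between cells, and few cells held many of the UMIs. The top 5 cells held 37.6% of Ctsk UMIs in cKO and 39.8% in WT. For Mmp9 the top 5 held 36.9% in cKO and 38.7% in WT, and for Itgb3 39.5% in cKO and 58.2% in WT. Atp6v0d2 had a ratio of 0.854 (0.798 to 0.915) and Acp5 of 0.954 (0.924 to 0.985). Dcstamp was higher in cKO, with a ratio of 1.22 (1.02 to 1.45), and the intervals of Ocstamp at 0.91 (0.731 to 1.14) and Oscar at 1.01 (0.709 to 1.46) included 1. When each cell had equal weight, Acp5, Ctsk and Mmp9 had ratios of 0.896, 0.705 and 0.725.

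RNA of other cell types also differed between the osteoclast-like cells of the 2 libraries. Summed over 10 neutrophil markers, cKO osteoclast-like cells had 199 CPM and WT ones 2063 CPM, with 2 of the 10 at 0 in each library. Summed over 10 mesenchymal markers they had 1122 CPM in cKO and 582 CPM in WT, with 1 of the 10 at 0 in each. The 5 genes highest in cKO relative to WT, at 100 CPM or more, were Tagln, Cald1, Timp1, Col1a2 and Sparc, at 4.46-fold for Tagln. The 5 lowest were Ltf, Camp, Lcn2, Ngp and S100a9, neutrophil genes, with ratios from 0.0356 for Ltf to 0.113 for S100a9. Few cells carried some of them: Ltf was found in 6 of 31 WT and 8 of 65 cKO cells. S100a9 was found in 26 of 31 WT and 54 of 65 cKO cells. Only 1 WT cell and 0 cKO cells had over 0.5% of their UMIs from neutrophil markers. The part of such RNA in the members' ratios was not tested beyond leaving out the 1 WT cell, after which Acp5 had a ratio of 0.967, Ctsk 0.671, Mmp9 0.745 and Itgb3 0.846.

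In macrophage-like cells Acp5, Ctsk and Mmp9 were higher in cKO; that this direction differs from osteoclast-like cells was not tested. Of the 4 members measured there at 10 CPM or more in either library, 3 were at least 1.5-fold higher in cKO, against 0.688% of 8865 measured genes, and 0 were that much lower, against 1.04%. Acp5 had 46.4 CPM in cKO and 16.5 CPM in WT, a ratio of 2.81 (2.53 to 3.14). Ctsk had 27.5 CPM in cKO and 8.69 CPM in WT, a ratio of 3.16 (2.74 to 3.67). Mmp9 had a ratio of 2.22 (1.84 to 2.69), and Atp6v0d2 of 1.21 (1.1 to 1.34). One cell carried much of this. The cycling-like cKO cell described above held 34.5% of the macrophage-like Acp5 UMIs of its library and 40.3% of the Ctsk UMIs. Without the cell with most member UMIs in each library, the ratios were 1.87 for Acp5, 1.89 for Ctsk and 2.15 for Mmp9. Without every cell with at least 3 members, they were 1.91 for Acp5, 1.82 for Ctsk and 1.94 for Mmp9.

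**Figure D4:**
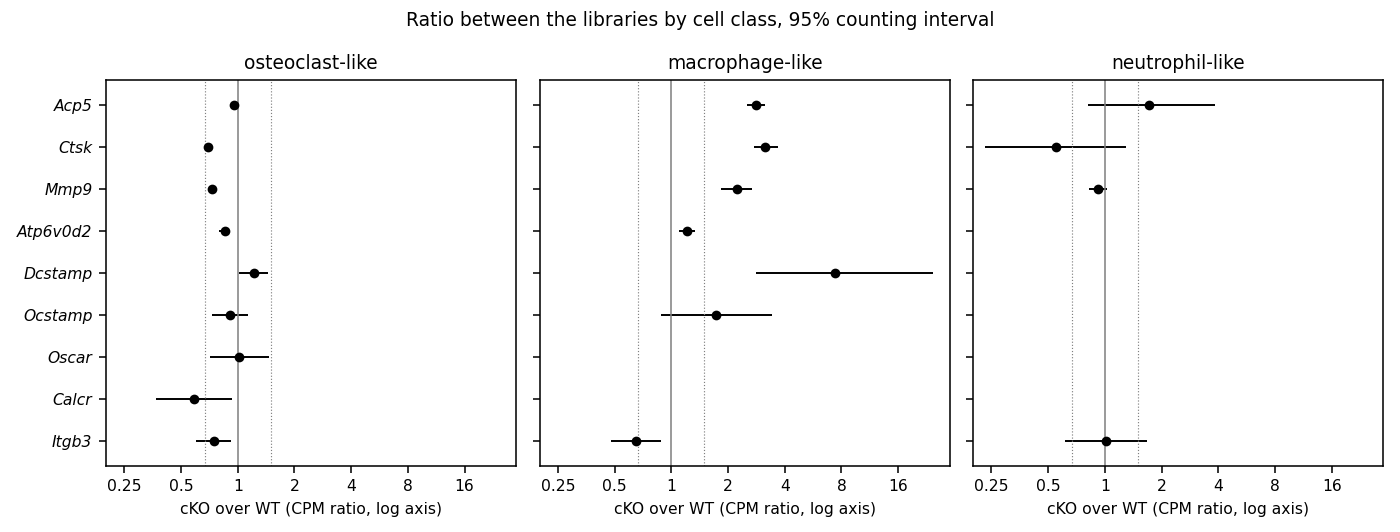
Ratio of cKO over WT CPM (log axis) of each member in osteoclast-like, macrophage-like and neutrophil-like cells, for members with at least 20 UMIs over both libraries; bars are 95% counting intervals and dotted lines mark 1.5-fold either way. Acp5, Ctsk and Mmp9 lie below 1 in osteoclast-like cells and between 2.22 and 3.16 in macrophage-like cells.

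The macrophage clusters differed in which members set them apart between the libraries. In cluster 0, all 4 measured members were at least 1.5-fold higher in cKO, against 2.66% of 8914 genes, and 0 lower, against 1.95%. Acp5 had 61.6 CPM in cKO and 31 CPM in WT, and Atp6v0d2 36.4 CPM in cKO and 22.8 CPM in WT, a ratio of 1.6 (1.28 to 2) that was 1.47 without the cell with most member UMIs in each library. In lipid-associated-like cells 3 of 4 were higher, against 0.805% of 8692 genes, and 0 lower, against 1.08%. There Acp5 had 23.1 CPM in cKO and 11.5 CPM in WT, Mmp9 had 14 CPM in cKO and 3.78 CPM in WT, and Atp6v0d2 had a ratio of 1.03 (0.914 to 1.16). A single cKO cell held 46 of the 163 Mmp9 UMIs of that cluster, without which, and without the WT cell with most members, the ratio was 2.65 (1.88 to 3.79). In cycling-like cells 2 of 3 were at least 1.5-fold higher, against 1.07% of 8880 genes, and 0 lower, against 1.64%. Acp5 had 74.4 CPM in cKO and 9.45 CPM in WT there, and 22.5 CPM in cKO and 9.36 CPM in WT without the top cell of each library. Resident-like cells, with 75 cKO and 74 WT cells, had 2 of 5 measured members at least 1.5-fold higher, where 15.5% of 9440 genes were, and 0 lower, where 17% were, from 3 to 23 UMIs a member in each library.

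Acp5 was also compared between the libraries in other classes, some of them not known to make it, and in an unnamed cluster. In neutrophil-like cells it had 7.34 CPM in cKO and 4.28 CPM in WT, a ratio of 1.71 (0.814 to 3.86), from 25 UMIs in cKO and 11 in WT. In mesenchymal-like cells 0 of 2 measured members were at least 1.5-fold higher or lower, where 0.581% of 8943 genes were higher and 1.14% lower. Acp5 had 5.95 CPM in cKO and 4.74 CPM in WT mesenchymal-like cells, a ratio of 1.25 (1.11 to 1.42), and 9.01 CPM in cKO and 1.88 CPM in WT endothelial-like cells, from 26 UMIs in cKO and 6 in WT. It was lower in cKO in T or NK cell-like cells, at 23.1 CPM against 54.1 CPM in WT, from 5 and 13 UMIs. B cell-like cells had 20.7 CPM of Acp5 in cKO and 27.6 CPM in WT, from 5 UMIs in cKO and 9 in WT. In an unnamed cluster of 35 cKO and 39 WT cells it had 98.3 CPM in cKO and 4.45 CPM in WT, from 25 UMIs in cKO and 1 in WT. A single cKO cell held 23 of those 25 UMIs, so the cKO value is not a level of the cluster. The counts of Atp6v0d2 and Ctsk were also set against that of Acp5. For 100 Acp5 UMIs, osteoclast-like cells had 20.3 Atp6v0d2 UMIs in cKO and 22.7 in WT, and macrophage-like cells 77.2 in cKO and 179 in WT. For Ctsk the same figures were 33.4 in cKO and 46 in WT osteoclast-like cells, and 59.3 in cKO and 52.7 in WT macrophage-like cells. The cKO macrophage-like figures include the cycling-like cell described above. It held 34.5% of the Acp5 and 40.3% of the Ctsk UMIs of that class and library, so they rest in part on 1 cell. The part of free RNA in the macrophage-like levels was not tested. Neutrophil-like cells gave 0 of 2 measured members past 1.5-fold either way, where 1.6% of 8179 genes were higher and 5.14% lower. Mmp9 had a ratio of 0.922 (0.823 to 1.03) there, but of 1.69 when only cells with at least 5000 UMIs were kept, and Itgb3 of 1.01 (0.611 to 1.67).

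Genes that work beside the members were compared between osteoclast-like and macrophage-like cells as lists, against the backgrounds of 18.8% of genes higher and 31.7% lower in cKO, and 18.3% higher and 34.9% lower in WT. Of 21 acid secretion genes, 16 in cKO and 17 in WT were at least 1.5-fold higher in osteoclast-like cells, and 1 was lower in each. Tcirg1, Clcn7, Ostm1 and Car2 are 4 of these genes and were also among the 16 markers that named the class; without them 12 of 17 in cKO and 13 of 17 in WT were higher. Among the rest Snx10, a sorting nexin needed for the ruffled border, had 888 CPM in cKO and 1037 CPM in WT osteoclast-like cells, against 156 CPM in cKO and 151 CPM in WT macrophage-like cells. The V-ATPase subunit Atp6v1b2 was 4.12-fold higher in cKO and 5.47-fold in WT. Carbonic anhydrase 2, Car2, had 21.2 CPM in cKO and 28.8 CPM in WT and was near 0 in macrophage-like cells. Of 12 sealing zone and adhesion genes, 9 in cKO and 10 in WT were higher, with 1 lower in each. Without the naming markers Src and Sh3pxd2a, 7 of 10 in cKO and 8 of 10 in WT were higher. Dock5, a Rac activator of the sealing zone, was 8.79-fold higher in cKO and 9.28-fold in WT.

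Repressors of osteoclast formation lay on the other side. Of 6 measured, 5 were at least 1.5-fold lower in osteoclast-like cells of each library and 0 higher. Irf8, a transcription factor of monocytes and macrophages, had 19.8 CPM in cKO and 25.8 CPM in WT osteoclast-like cells, against 157 CPM in cKO and 199 CPM in WT macrophage-like cells. Of the transcription factors of osteoclast formation, 5 of 13 in cKO and 6 of 14 in WT were higher and 2 lower in each, with Fosl2 9.57-fold higher in cKO and 13.1-fold in WT. Nfatc1 and Jdp2 were among these but had named the class, and without them 3 of 11 in cKO and 4 of 12 in WT were higher. Receptors and co-stimulation genes gave 6 of 13 higher in cKO and 7 of 13 in WT, and 3 lower in each, or 5 of 12 higher in cKO and 6 of 12 in WT without Tnfrsf11a. Their named members apart from Tnfrsf11a, which is RANK and a naming marker, were lower: Fcgr3, an Fc receptor, had ratios of 0.0378 in cKO and 0.175 in WT.

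The remaining lists did not follow the members. Of 11 fusion helpers, 2 were at least 1.5-fold higher and 6 lower in each library. Cd9, a tetraspanin, was 3.18-fold higher in cKO and 4.01-fold in WT, and its relative Cd81 had ratios of 0.305 in cKO and 0.206 in WT. Of 9 other proteases and inhibitors, 2 were higher and 6 lower in each. Ctsb, a general lysosomal cathepsin, had 1316 CPM in cKO and 1645 CPM in WT osteoclast-like cells, against 8787 CPM in cKO and 8700 CPM in WT macrophage-like cells, and legumain, Lgmn, had ratios of 0.163 in cKO and 0.222 in WT. The inhibitor gene Cst3, cystatin C, was 4.04-fold higher in cKO and 4.07-fold in WT.

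**Figure D5:**
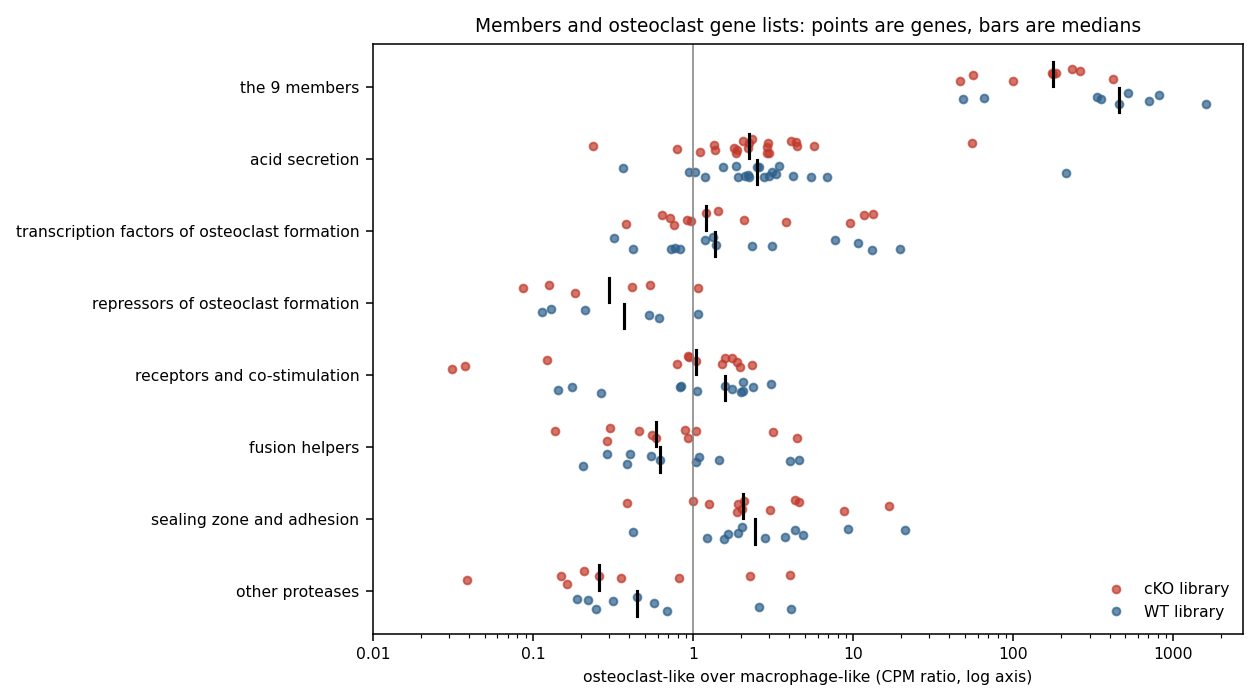
Ratio of osteoclast-like over macrophage-like CPM (log axis) for the 9 members and for 7 lists of osteoclast genes, 1 point per gene with at least 10 CPM in either class, in the cKO (red) and WT (blue) libraries; black bars are medians. The members lie between 46.5 and 421 in cKO and between 48.8 and 1590 in WT, and the median of the repressors lies below 1.

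By likeness of level over 18 sums of cells, 9 classes in each of the libraries, some members followed each other and others did not; the sums share the libraries and 2 of them are osteoclast-like. Pearson's r of log2(CPM + 1) between Dcstamp and Calcr was 0.988, between Dcstamp and Oscar 0.986 and between Oscar and Calcr 0.983. Itgb3 stood apart, with r from -0.094 with Acp5 to 0.271 with Ocstamp. Among 12836 genes, the most alike to Dcstamp was Mt3 (0.991), to Oscar Mst1r (0.993), to Calcr Prss8 (0.991) and to Ocstamp 9130227L01Rik (0.946). Those of Acp5, Ctsk and Atp6v0d2 were Sdhb (0.937), Dusp9 (0.951) and Lyzl4 (0.963). Mmp9, with its second site in neutrophil-like cells, had a lower best match, Rufy4 at 0.867, and Itgb3 had Gtf2e2 at 0.92. By the mean of a gene's separate correlations with the 9 members, Itgb3 included, the highest were Mt3 (0.843), 4833415N18Rik (0.84) and Mst1r (0.839).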

How the data were processed

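The authors deposited matrices of raw UMI counts for each barcode; per the file headers, Cell Ranger 7.1.0 made them. Barcodes had already been called as cells, the lowest with 500 UMIs. The build was mm10 (GRCm38) and Seurat was named, per the submitters' processing notes. The sources used here do not give whether reads in introns were included. Cell classes were rebuilt from the counts.

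From these counts, cells were kept that had 500 or more genes, 1000 or more UMIs and up to 15% of UMIs from mitochondrial genes. Scrublet's automatic threshold marked only 2 cells in each library, so the highest scores were removed instead (0.8% per 1000 cells: 243 cKO and 534 WT cells). With scanpy 1.11.5 and leidenalg 0.10.2, counts were scaled to 10000 per cell and logged, and 2000 variable genes without the 9 members, 30 components and 15 neighbours were clustered (resolution 0.5). A cluster took the name of the class with the highest mean log2 ratio among those with at least 3 markers 2-fold above the mean of clusters. It stayed unnamed if another class had more markers in its top 10 genes by fold, or if in either library its median UMI count was below 1/3 of that library's median and none of its own markers was in that top 10. Clusters 8, 12 and 13 stayed unnamed in this way. Doublets left in cannot be told from cells that carry both programmes.

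UMIs were summed per library and class and given as CPM of the summed total, with exact Poisson 95% intervals. Ratios have exact conditional binomial intervals and shares Clopper-Pearson ones; all cover counting error only and compare these libraries, not genotypes. There is no test, since there is 1 library per group. For joint detection each cell was thinned to 3000 UMIs and shallower cells were left out. Macrophage-like and neutrophil-like cells were split by a member in a separate random draw of the same size, so those numbers of positive cells differ slightly from the shares. A gene was measured where either side reached 10 CPM, and called at 1.5-fold. Medians of log2 ratios used a prior of 1 CPM. Coordinates are from GENCODE M21. Interval coverage and thinning were tested on simulated data.

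The members, marker lists and gene lists were chosen with earlier results of these data known. Beyond the members, the text names genes of each list with the largest difference between osteoclast-like and macrophage-like cells at 10 CPM or more, the 5 highest and 5 lowest cKO over WT ratios at 100 CPM or more, the genes most alike to each member, and markers of split macrophage-like and neutrophil-like cells, the last chosen after their values were seen.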

Additional observations from a re-analysis of the deposited data

Results flagged for a closer look

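In 4 members the ratio of cKO over WT lay on opposite sides of 1 in osteoclast-like and macrophage-like cells, and the difference between the classes was not tested. Acp5 had 0.954 in osteoclast-like and 2.81 in macrophage-like cells. Ctsk had 0.693 in osteoclast-like and 3.16 in macrophage-like cells. A single cKO cell held 34.5% of the macrophage-like Acp5 UMIs of its library and 40.3% of the Ctsk UMIs. Without the top cells, as given above, both macrophage-like ratios were smaller but still above 1. In osteoclast-like cells the Acp5 ratio did not stay below 1 under every alternative, as given below. Mmp9 had 0.731 in osteoclast-like and 2.22 in macrophage-like cells. Atp6v0d2 had 0.854 in osteoclast-like and 1.21 in macrophage-like cells. With 1 library per genotype, genotype and library cannot be told apart in any of them.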

How the results depend on the processing

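The stricter cell filter lowered the osteoclast-like share to 0.791% of cKO and 0.271% of WT cells. The number of members at least 1.5-fold lower in cKO osteoclast-like cells was 1 as reported. With members among the clustering genes the number was 4. That added 17 cKO cells, 13 of them from the unnamed cluster led by immunoglobulin genes. Under the stricter filter the number was also 4. It was 2 with no cell filter, 0 with equal weight per cell and 0 without the WT cell rich in neutrophil markers; the cause was not tested. Under the stricter filter Itgb3 had a ratio of 0.419 and Oscar of 0.514. Acp5 in osteoclast-like cells ran from 0.836 to 1.02 over the alternatives, and in neutrophil-like cells Mmp9 reached 1.69 when only cells with at least 5000 UMIs were kept. In macrophage-like cells the ratio stayed at or above 1.87 for Acp5, 1.81 for Ctsk and 1.72 for Mmp9. All 9 members stayed at least 1.5-fold higher in osteoclast-like than macrophage-like cells under every alternative run. At least 3 members were found in 77.4% of WT osteoclast-like cells thinned to 1500 UMIs. At least 2 were found in 100% of WT ones at 3000. Without Mmp9, Itgb3 and Ctsk the share with 3 or more was 69% in cKO and 66.7% in WT. The restrictions to cells low in neutrophil markers, without cells holding 3 or more members, and without the 5 cells with most member UMIs were chosen after seeing the data. Of the other values, 84 moved past their counting interval and 344 did not. No paired analysis was possible because each genotype has 1 library and the labels give no shared replicate number. Depth limits Calcr and Oscar, found at full depth in 12 and 28 of 65 cKO cells and in 12 and 15 of 31 WT cells.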
